A study of Mus musculus with 6 samples.

Results

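The genes described here are 10 that shape the mitochondrial network and mark mitochondria for removal: Mfn1, Mfn2 and Opa1 for fusion, Dnm1l, Fis1 and Mff for fission, and Pink1, Bnip3, Bnip3l and Fundc1 for mitophagy. They were chosen by symbol, and all 10 were matched among the 49315 genes of the deposited count table. RNA was sequenced from the hearts of 3 conditional knock-in mice carrying Txnip C247S and of 3 wild-type mice (Txnip WT), all on the C57BL/6 background. Txnip is the thioredoxin-interacting protein, an alpha-arrestin, and the mutation replaces a cysteine through which it binds thioredoxin. For both genotypes the labels list MerCreMer, a recombinase switched on by tamoxifen, and treatment with 4-hydroxytamoxifen. They give no promoter, age, sex or time after treatment, and leave unclear if the recombinase was present in wild-type animals. Whole hearts also hold fibroblasts, vessels and blood cells, and in such samples fewer cells of a type and less RNA per cell cannot be told apart.

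Mitochondria in mammalian cells fuse and divide, and damaged ones are sorted out for degradation by autophagy. Fusion of the outer membrane is carried out by the mitofusins Mfn1 and Mfn2 and fusion of the inner membrane by Opa1. Division needs the cytosolic GTPase Drp1, the product of Dnm1l, which adaptors such as Mff recruit to the outer membrane. For mitophagy, the kinase Pink1 accumulates on depolarised mitochondria and marks them for autophagy, while Bnip3, Bnip3l (also called Nix) and Fundc1 are outer-membrane receptors that bind LC3 proteins of the autophagosome. The heart is dense in mitochondria, and mice whose cardiomyocytes lack both mitofusins or Drp1 develop cardiomyopathy.

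None of the 10 genes differed between knock-in and wild-type hearts by the test used, edgeR's quasi-likelihood test over all expressed genes with an adjusted p under 0.05 as the threshold. DESeq2 and limma-voom called 0 of the 10 as well, and 1, Pink1, had an unadjusted edgeR p under 0.05, on the higher side. All 10 passed the filter on low counts. Of the 12777 genes tested 38 were called, which is 0.297%, and 9.97% had an unadjusted p under 0.05, 4.74% on the higher side. The log2 fold changes (knock-in over wild-type) of the 10 genes ran from −0.21 for Opa1 to 0.26 for Bnip3l. Their median was 0.014, beside −0.0068 over all tested genes. The 95% intervals of the 10 estimates reached from −0.55 to 0.52 on the log2 scale, which are folds of 0.683 and 1.43.

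Library totals lay between 14146048 and 15620476 counts, and the 10 genes had from 255 counts (Fundc1) to 12228 counts (Mfn2) per library. Txnip itself, the edited gene, had 438, 391 and 429 CPM (counts scaled to library size after TMM normalization) in the knock-in hearts, against 724, 791 and 741 CPM in the wild-type hearts. The knock-in values were all lower (log2 fold change −0.84 ± 0.09 SE, edgeR adjusted p = 0.00379). Txnip missed the threshold in the fits that left out wild-type replicate 2 (adjusted p = 0.0525) or knock-in replicate 3 (adjusted p = 0.0642). Gene counts do not read the edited base.

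Sequence upstream of Bnip3 and Pink1 is shown because Bnip3 is a textbook target of hypoxia-inducible factor (HIF) and Pink1 had the smallest p of the 10 genes. The sequences are RefSeq's 250 bases before the start of each gene (build GRCm38.p6, minus strand, printed 5′ to 3′). They lie at chr7:138909507-138909756 for Bnip3 and chr4:138326297-138326546 for Pink1. Capitals mark ACGTG and GCGTG, the core letters of HIF sites, on either strand.
Bnip3: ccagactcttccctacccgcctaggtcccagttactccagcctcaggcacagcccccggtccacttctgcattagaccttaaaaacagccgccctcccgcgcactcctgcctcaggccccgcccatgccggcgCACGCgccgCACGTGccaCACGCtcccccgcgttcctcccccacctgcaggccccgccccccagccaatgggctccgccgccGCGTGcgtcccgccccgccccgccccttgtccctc
Pink1: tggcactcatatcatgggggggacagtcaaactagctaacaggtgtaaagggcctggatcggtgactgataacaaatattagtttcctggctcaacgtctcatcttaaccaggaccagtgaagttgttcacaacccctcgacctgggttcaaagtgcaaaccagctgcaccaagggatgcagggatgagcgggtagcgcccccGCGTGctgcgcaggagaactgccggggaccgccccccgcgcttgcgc
The Bnip3 window held ACGTG 2 times, as the overlapping strands of a palindrome, and GCGTG 3 times. The Pink1 window held GCGTG 1 time and no ACGTG. Of all 32851 upstream windows of this length in the RefSeq table, 16.6% held ACGTG, 28.2% held GCGTG and 38.6% held either. Of the 14 windows listed for the 9 genes with an entry, 6 held either, a share near that of all windows. A match of 5 letters is a description of the sequence and not a binding site. Bnip3l has no entry.

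Per length of transcript, the highest of the 10 genes was Pink1. Its level was 260 ± 11.8 CPM per kb of merged exons in knock-in and 226 ± 5.94 CPM per kb in wild-type hearts (SD, n = 3 each). Mfn2 followed with 139 ± 13.9 CPM per kb in knock-in and 139 ± 10.7 CPM per kb in wild-type hearts. Then came Bnip3, Mfn1, Fis1, Opa1, Dnm1l, Bnip3l and Mff, and Fundc1 was lowest with 8.11 ± 0.665 CPM per kb in knock-in and 8.27 ± 0.778 CPM per kb in wild-type hearts. The ranges over the 6 libraries overlapped between the neighbours Mfn1 and Fis1, Opa1 and Dnm1l, and Dnm1l and Bnip3l. The other neighbouring pairs were separate. With the longest transcript as the length, Fis1 moved above Mfn1 and Mff above Bnip3l, and Pink1, Mfn2 and Bnip3 stayed the top 3 by mean. The ranges then overlapped between Bnip3 and Fis1, Fis1 and Mfn1, Opa1 and Dnm1l, and Dnm1l and Mff.

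**Figure D1:**
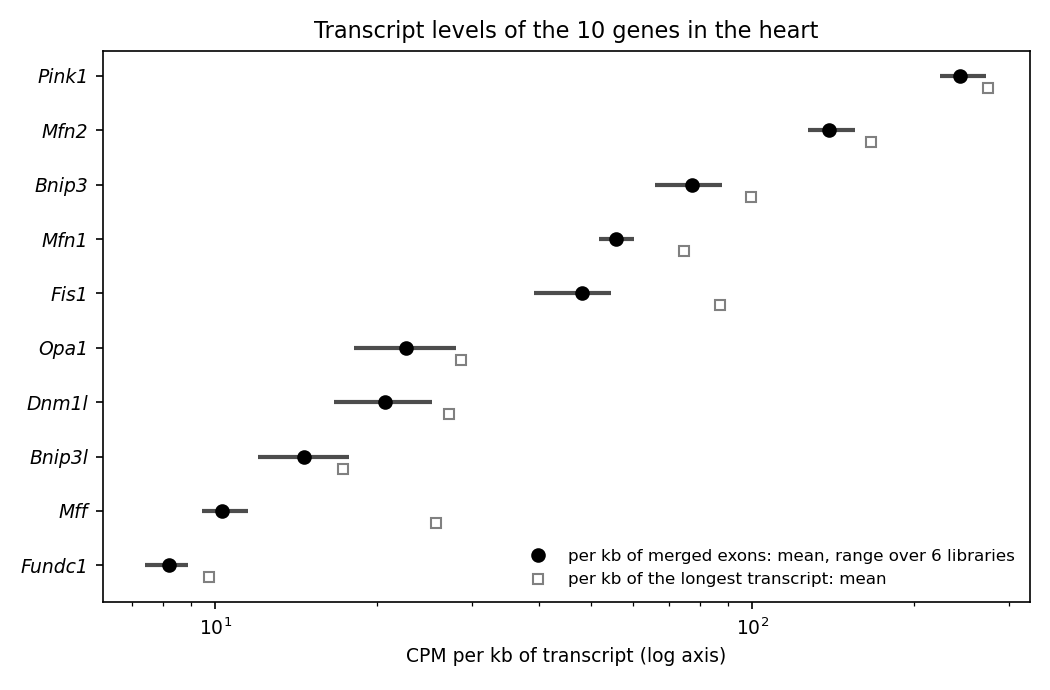
Levels of the 10 genes in CPM per kb of transcript on a log axis, as the mean (dot) and range (line) over the 6 libraries per kb of merged exons, with the mean per kb of the longest transcript as an open square. Pink1 stood highest, with a mean of 243 CPM per kb, and Fundc1 lowest, with 8.19 CPM per kb.

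Among the fusion genes, Mfn1 had 330, 338 and 317 CPM in the knock-in hearts, against 346, 345 and 368 CPM in the wild-type hearts. Each knock-in value lay below each wild-type value, but the step between the groups was small. On the log2 scale it was −0.10 ± 0.09 (SE; 95% interval −0.30 to 0.09, edgeR adjusted p = 0.766). Mfn1 was also among the steadiest genes, with coefficients of variation of 3.32% in knock-in and 3.66% in wild-type hearts.

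Mfn2, which also tethers mitochondria to the endoplasmic reticulum, had 692, 806 and 672 CPM in knock-in and 659, 737 and 766 CPM in wild-type hearts. The groups overlapped, with means of 723 ± 72 CPM in knock-in and 721 ± 55.7 CPM in wild-type hearts (SD, n = 3 each). Its log2 fold change was 0.01 ± 0.10 (edgeR adjusted p = 0.995), with a 95% interval of −0.22 to 0.23. Per kb of merged exons, Mfn2 stood 2.46, 2.8 and 2.5 times as high as Mfn1 in the knock-in hearts and 2.24, 2.52 and 2.45 times as high in the wild-type hearts. These ratios overlapped between the genotypes.

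Opa1, the inner-membrane GTPase, had 143, 203 and 150 CPM in knock-in and 165, 188 and 221 CPM in wild-type hearts. Knock-in replicate 2 lay above 2 of the 3 wild-type values, so the groups overlapped. It was the gene of the 10 with the lowest fold change, −0.21 ± 0.15 (SE; 95% interval −0.55 to 0.13, edgeR adjusted p = 0.727). Leaving out knock-in replicate 2 moved the log2 fold change to −0.38 (adjusted p = 0.186), and leaving out wild-type replicate 3 moved it to −0.09 (adjusted p = 0.905). The proteases that cut Opa1 in the inner membrane were close to level as well, with log2 fold changes of 0.02 ± 0.11 for Oma1 and −0.06 ± 0.18 for Yme1l1. Both of these signs turned when either wild-type replicate 3 or knock-in replicate 1 was left out.

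**Figure D2:**
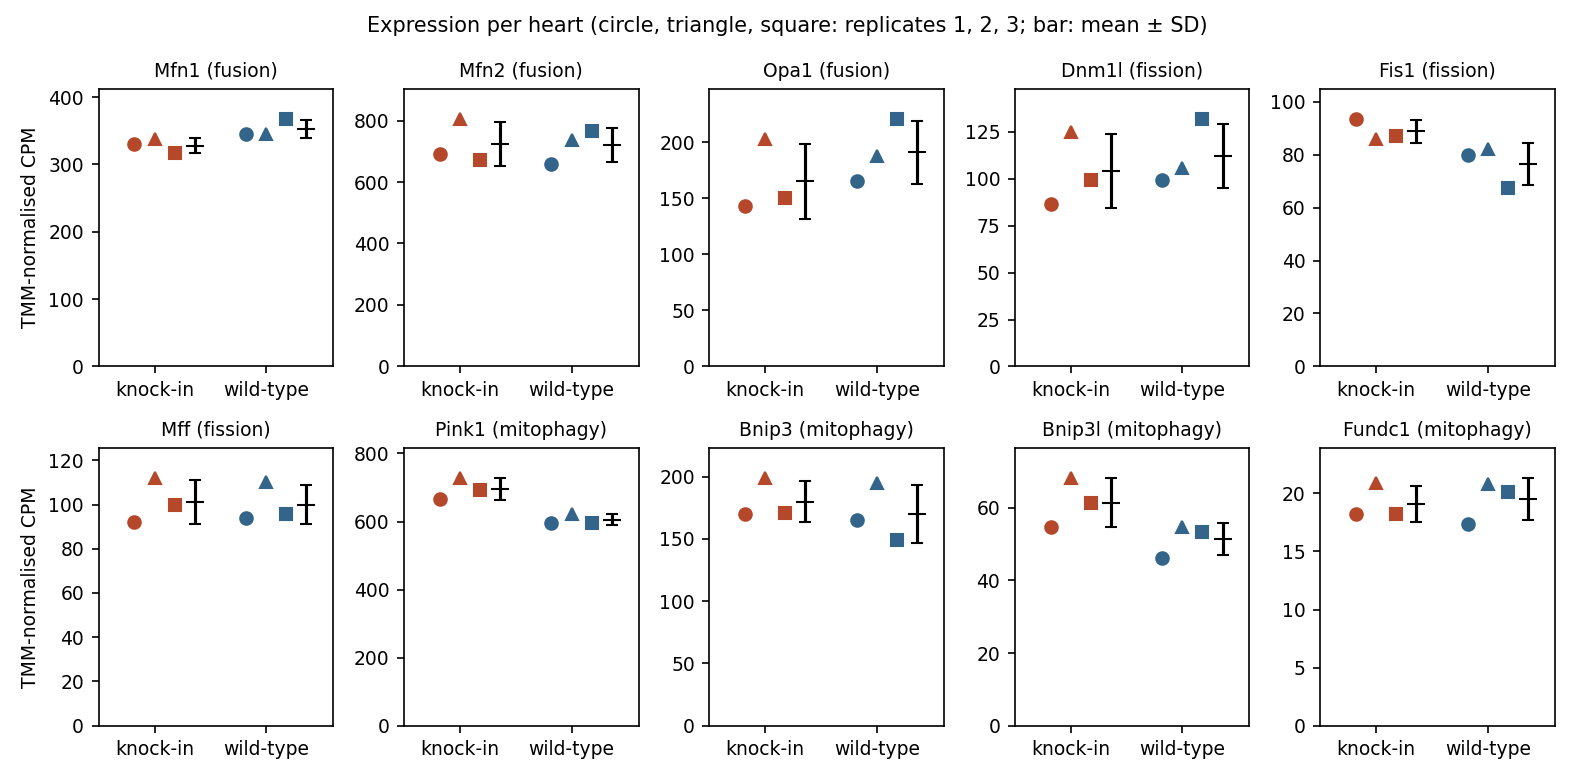
TMM-normalised CPM of the 10 genes in each heart, knock-in left and wild-type right in each panel, with circles, triangles and squares for replicates 1, 2 and 3 and a bar for the mean ± SD (n = 3). The groups do not overlap for Mfn1, Fis1, Pink1 and Bnip3l, and the widest spread within a genotype is that of Opa1 and Dnm1l.

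Among the fission genes, Dnm1l had 86.3, 125 and 99.1 CPM in knock-in and 99.2, 106 and 132 CPM in wild-type hearts. The groups overlapped, with knock-in replicate 2 and wild-type replicate 3 the highest of their genotypes. The log2 fold change was −0.12 ± 0.15 (95% interval −0.45 to 0.22, edgeR adjusted p = 0.874). Leaving out knock-in replicate 2 gave −0.27, while leaving out wild-type replicate 3 gave 0.01, so the sign rested on single libraries.

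Fis1, a small outer-membrane protein that is an adaptor for the fission machinery in yeast and has a debated role in mammals, had 93.6, 85.8 and 86.9 CPM in knock-in hearts. In wild-type hearts it had 79.8, 82.1 and 67.3 CPM. Each knock-in value lay above each wild-type value, with the lowest value in wild-type replicate 3. The log2 fold change of 0.22 ± 0.11 did not pass (95% interval −0.02 to 0.45, unadjusted p = 0.0696, adjusted p = 0.553, edgeR). Without wild-type replicate 3 it was 0.13 (edgeR adjusted p = 0.718).

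Mff, the main adaptor for Drp1 in mammals, had 92.1, 112 and 100 CPM in knock-in and 93.9, 110 and 95.5 CPM in wild-type hearts. The groups covered nearly the same range. Its log2 fold change was 0.02 ± 0.11 (95% interval −0.22 to 0.27, edgeR adjusted p = 0.979).

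Among the mitophagy genes, Pink1 (ENSMUSG00000028756, chromosome 4, 138313409 to 138326307, GRCm38) had 665, 728 and 693 CPM in knock-in hearts, against 596, 623 and 595 CPM in wild-type hearts. The groups did not overlap, and the means were 695 ± 31.5 CPM in knock-in and 605 ± 15.9 CPM in wild-type hearts (SD, n = 3 each). The fold was 1.15, with a 95% interval of 1.01 to 1.31 before any correction for the number of genes. The log2 fold change of 0.20 ± 0.09 had an unadjusted p of 0.0397 and an edgeR adjusted p of 0.468, and so did not pass. Its standard error was among the smallest of all tested genes, at percentile 0.219. The log2 fold change of Pink1 stayed between 0.16 and 0.24 in the 16 alternative analyses, with adjusted p from 0.355 to 0.842. In the same hearts the summed level of the 10 cardiomyocyte markers was 112000, 105000 and 109000 CPM in knock-in replicates 1, 2 and 3. In wild-type replicates 1, 2 and 3 it was 95700, 95400 and 95900 CPM. Both these sums and the Pink1 values were higher in each knock-in heart than in each wild-type heart. Among the knock-in hearts alone, the order of the sums was the reverse of that of Pink1. The part of cardiomyocyte RNA in the Pink1 values was not tested.

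The genes whose pattern over the 6 libraries was most like that of Pink1 were Aga and Cavin2. Likeness was the root mean square difference of log2 CPM centred on each gene's mean, over the 7475 other genes with a mean of at least 10 CPM. The differences were 0.0212 for Aga, a lysosomal amidase, and 0.0231 for Cavin2, a coat protein of caveolae. Neither was called by edgeR (adjusted p = 0.705 for Aga and 0.626 for Cavin2). Both were picked for likeness to Pink1, which was not called, so this is no separate result. The 6 libraries cannot separate many such profiles.

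Bnip3l (ENSMUSG00000022051, chromosome 14, 66985239 to 67008877) had 54.8, 68.2 and 61.3 CPM in knock-in and 46.2, 54.6 and 53.3 CPM in wild-type hearts. The groups just failed to overlap, since knock-in replicate 1 and wild-type replicate 2 were almost equal. It had the highest fold change of the 10 genes, 0.26 ± 0.12 on the log2 scale (unadjusted p = 0.0505, adjusted p = 0.501, edgeR). The 95% interval of its fold ran from 1 to 1.43. In the mouse, Bnip3l is required for the clearance of mitochondria from maturing red blood cells. Erythroid markers were higher in the same knock-in hearts: 7 of 9 were called higher, and their summed level was 1500 to 1970 CPM in knock-in and 489 to 668 CPM in wild-type libraries. Knock-in replicate 2 had the highest value and wild-type replicate 1 the lowest value both of Bnip3l and of the erythroid sum. This was not particular to Bnip3l, since Mfn2 and Fundc1 had the same extremes. Knock-in replicate 2 was the highest of all 6 libraries for 6 of the 10 genes. The part of red-cell RNA in the Bnip3l values was not tested.

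Bnip3, the paralogue of Bnip3l, had 170, 199 and 171 CPM in knock-in and 165, 195 and 149 CPM in wild-type hearts. The groups overlapped, and replicate 2 was the highest of each genotype. Its log2 fold change was 0.09 ± 0.12 (95% interval −0.18 to 0.35, edgeR adjusted p = 0.889). It was −5.7e-04 without wild-type replicate 3 and 0.20 without wild-type replicate 2. Per kb of merged exons Bnip3 stood 5.29, 4.96 and 4.76 times as high as Bnip3l in knock-in hearts and 6.08, 6.08 and 4.76 times as high in wild-type hearts, with the lowest wild-type ratio as low as the lowest in the knock-in. Of the 31-base words of the longest Bnip3 transcript 74.7% also occur in transcripts of other genes, so its count is uncertain. For Bnip3l this share was 27.4%, all in the pseudogene Bnip3l-ps, which had 2 to 4 counts per library. Dnm1l shared 11.9% of its words, Pink1 3.41%, and the 6 others under 1%. An antisense gene, Gm45507, overlaps 22.3% of the exon bases of Bnip3 and had 0 counts in all 6 libraries.

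Fundc1, a receptor linked to mitophagy under low oxygen, had 18.2, 20.9 and 18.2 CPM in knock-in and 17.4, 20.8 and 20.1 CPM in wild-type hearts. The groups overlapped (log2 fold change −0.03 ± 0.13, 95% interval −0.31 to 0.25, edgeR adjusted p = 0.978).

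**Figure D3:**
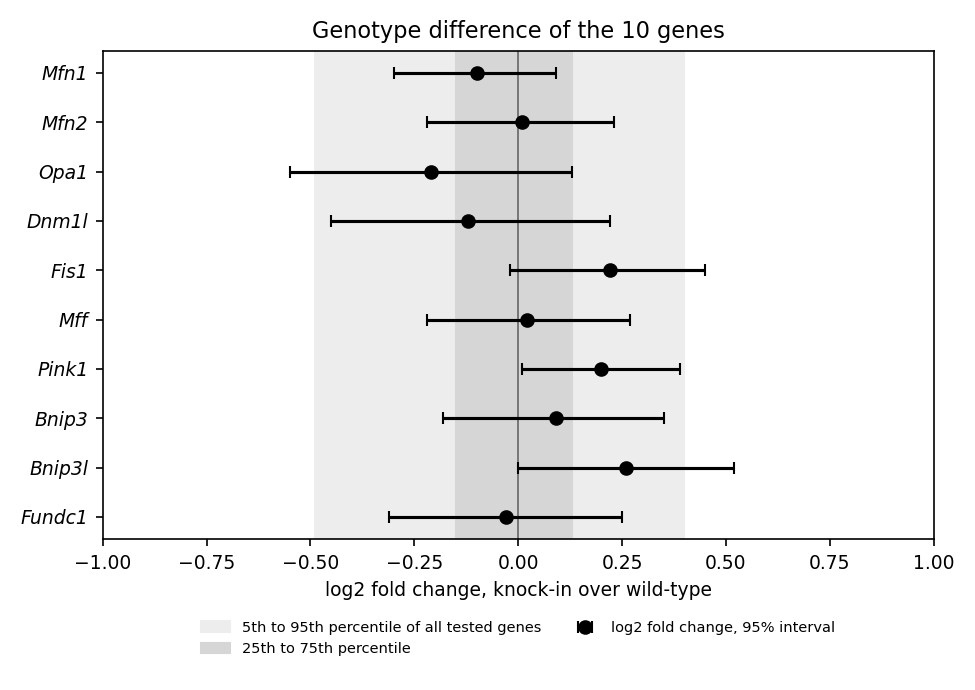
Log2 fold change (knock-in over wild-type) of the 10 genes with 95% intervals from the edgeR fit, over grey bands for the 5th to 95th and the 25th to 75th percentile of all tested genes (−0.49 to 0.40 and −0.15 to 0.13). The 10 estimates lie between −0.21 and 0.26, and every interval except that of Pink1 includes 0.

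The groups did not overlap for 4 of the 10 genes, with Fis1, Pink1 and Bnip3l above and Mfn1 below in the knock-in hearts. Over all tested genes this held for 16.1%, 8.12% above and 7.99% below. The median size of the log2 fold change was 0.111 for the 10 genes and 0.14 for all tested genes, and the median standard error was 0.114 and 0.161. Each of the 10 standard errors stood below the median over all tested genes, at percentiles from 0.219 (Pink1) to 45.3 (Opa1).

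Many of the 10 genes were high in the same libraries. Knock-in replicate 2 was the highest of its genotype for 9 of the 10 genes and the lowest for Fis1. The share of all tested genes with knock-in replicate 2 as the highest of its genotype was not counted. In Mfn1, Mfn2, Opa1 and Dnm1l, wild-type replicate 3 was also the highest of its genotype, while in Fis1 both libraries were the lowest. The spread was widest for Dnm1l and Opa1, with ranges of 0.54 and 0.51 on the log2 scale among knock-in hearts and of 0.41 and 0.43 among wild-type hearts. For Pink1 the ranges were 0.13 among knock-in and 0.07 among wild-type hearts. Within each genotype Yme1l1 showed the same order as Opa1. It had 52, 79.5 and 58.4 CPM in knock-in and 53.8, 65.8 and 79 CPM in wild-type hearts.

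The joint patterns of knock-in replicate 2 and wild-type replicate 3 were common in the whole table. Knock-in replicate 2 and wild-type replicate 3 were both the highest of their genotype for 22% of the tested genes, and both the lowest for 22.6%. The median length of the longest transcript was 4738 bases in the first set and 2501 bases in the second, beside 3389 bases over all tested genes. In the first set, the longest transcripts of Mfn1, Mfn2, Opa1 and Dnm1l have 4562, 4341, 6230 and 3966 bases. In the second set, that of Fis1 has 948. Mff, Bnip3l, Pink1, Fundc1 and Bnip3, which are in neither set, have 3918, 3259, 2375, 1983 and 1756 bases. Wild-type replicate 3 also had the highest share of counts from the mitochondrial chromosome, 28%, against 22.9% to 24.3% in the other libraries. The part of these library differences in the values of the 10 genes was not tested. Without both libraries, 0 of the 10 genes were called, while the count over all genes was 392. The log2 fold changes were then −0.26 for Opa1, −0.14 for Dnm1l, 0.16 for Fis1, 0.16 for Pink1 and 0.21 for Bnip3l.

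**Figure D4:**
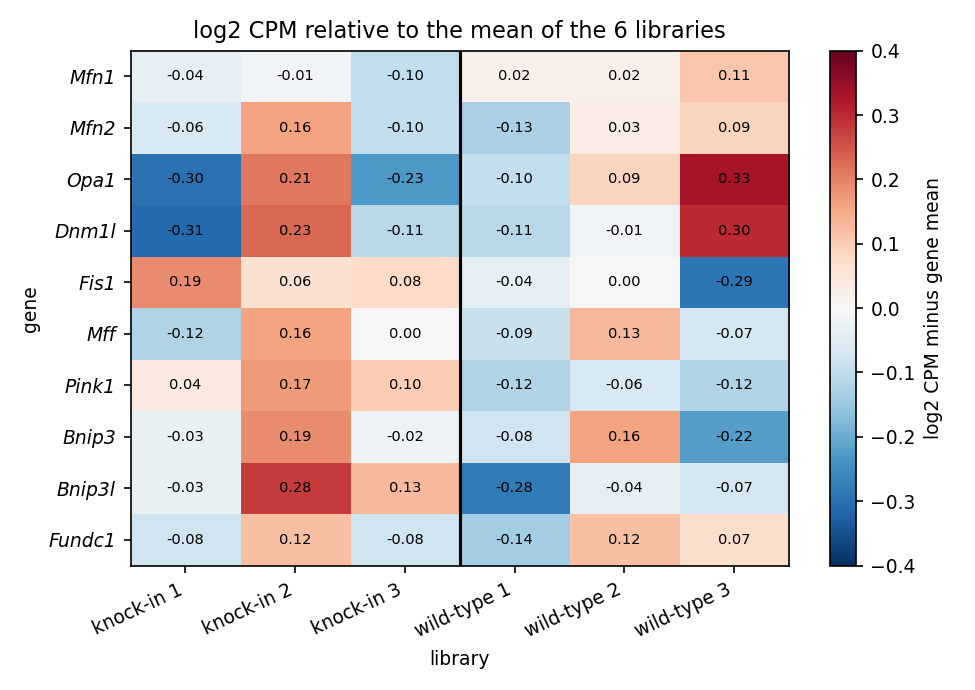
Log2 CPM of each of the 10 genes (rows) in each library (columns, knock-in left of wild-type), relative to the gene's mean over the 6 libraries. Opa1 and Dnm1l are high in knock-in replicate 2 (0.21 and 0.23) and wild-type replicate 3 (0.33 and 0.30), where Fis1 is at 0.06 and −0.29.

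The other genes of the pathway gave 0 edgeR calls in each of 7 lists. Of 24 further genes of fusion and the inner membrane, 8 had positive and 16 negative log2 fold changes, with a median of −0.03. Only Minos1, a core subunit of the MICOS complex that holds cristae junctions, had an unadjusted p under 0.05. It had 226, 212 and 211 CPM in knock-in and 184, 181 and 164 CPM in wild-type hearts, without overlap (log2 fold change 0.30 ± 0.09, edgeR adjusted p = 0.286). Of 19 further fission genes, 4 were positive and 15 negative, with a median of −0.05 and 0 genes at an unadjusted p under 0.05. The smallest p among these was that of Mtfr1l, a mitochondrial fission regulator-like gene (−0.14 ± 0.10, edgeR adjusted p = 0.715).

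In the list of 30 further mitophagy genes, 17 were positive and 13 negative, with a median of 0.01. At an unadjusted p under 0.05, 2 were higher and 1 lower. Atpif1, the inhibitor of the ATP synthase when it runs in reverse, had 187, 170 and 172 CPM in knock-in and 141, 130 and 100 CPM in wild-type hearts. The groups did not overlap, with a wide spread among the wild-type hearts. Its log2 fold change was 0.51 ± 0.13, and the call depended on the analysis: the edgeR adjusted p was 0.175, while DESeq2 gave an adjusted p of 0.0372. edgeR gave an adjusted p of 0.00148 without the low-count filter and 0.0243 when knock-in replicate 2 and wild-type replicate 3 were left out together. Over all genes DESeq2 called 0.95%. Of 35 core autophagy genes, 16 were positive and 19 negative, with a median of −0.01 and 0 at an unadjusted p under 0.05. Atg2a, a lipid transfer protein of the growing autophagosome, had the smallest p (−0.22 ± 0.11, edgeR adjusted p = 0.559). Map1lc3b, which encodes an LC3 protein that the receptors bind, had 260, 323 and 254 CPM in knock-in and 239, 270 and 225 CPM in wild-type hearts, which overlapped (0.19 ± 0.12, edgeR adjusted p = 0.663).

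Genes of mitochondrial mass and import, of which several are used as measures of mitochondrial content, had a median of −0.06 over 27 genes, 11 positive and 16 negative. At an unadjusted p under 0.05, 2 were higher and 2 lower. Polg, the polymerase of mitochondrial DNA, had the smallest p, with 50.2, 47.1 and 45.7 CPM in knock-in and 58.8, 60.5 and 60.4 CPM in wild-type hearts. The groups did not overlap, and the log2 fold change of −0.33 ± 0.10 did not pass (edgeR adjusted p = 0.247).

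Bnip3 responds to HIF, and Foxo factors act on Bnip3 and Bnip3l in mouse muscle, so other targets of these factors were read beside them. Of 17 HIF targets, 12 were positive and 5 negative, with a median of 0.09. Ldha, lactate dehydrogenase A, had the smallest p (0.25 ± 0.09, unadjusted p = 0.0203, edgeR adjusted p = 0.382). Of 14 Foxo targets, 8 were positive and 6 negative, with a median of 0.05. Pik3ip1, an inhibitor of phosphoinositide 3-kinase, had the smallest p (0.26 ± 0.11, unadjusted p = 0.0381, edgeR adjusted p = 0.465). These 2 were the only members of their lists at an unadjusted p under 0.05. DESeq2 called 1 gene over the 7 lists, Atpif1, and limma-voom called 0.

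**Figure D5:**
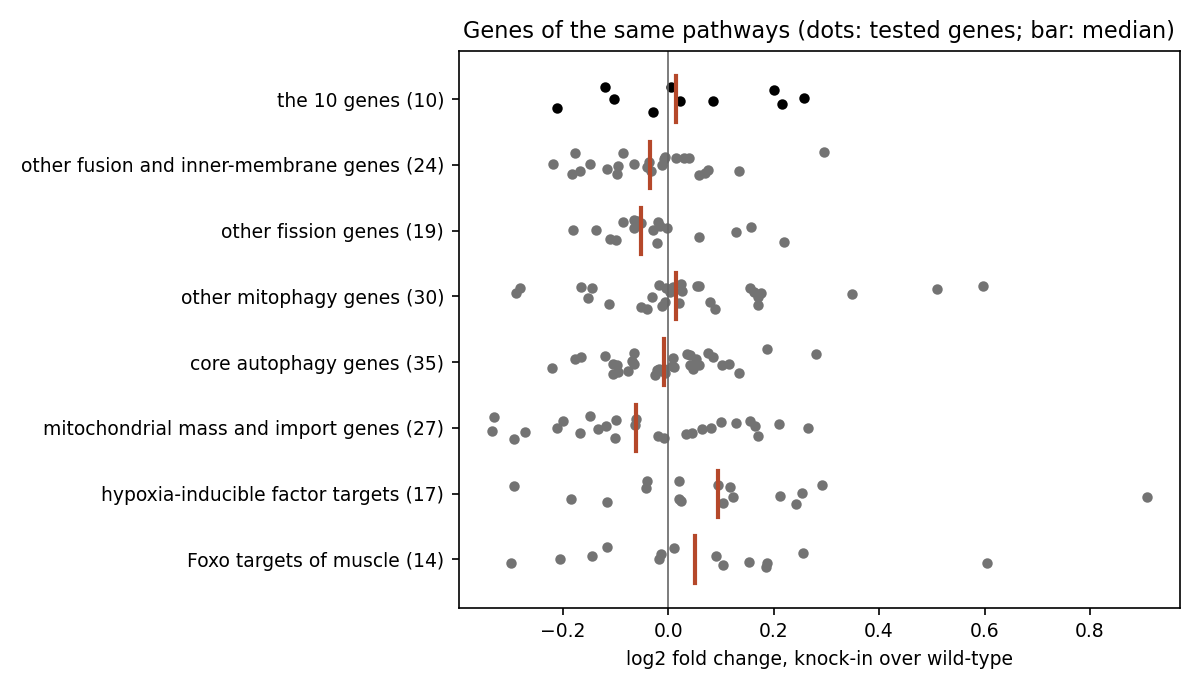
Log2 fold change (knock-in over wild-type) of every tested gene of the 7 pathway lists and of the 10 genes, with the number of genes in brackets and a bar at each median. The medians lie between −0.06 and 0.09, and 0 of the genes drawn were called by edgeR.

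Markers of the heart's cell types, read for the make-up of the samples, moved unequally. The cardiomyocyte marker Myl2 was called higher (log2 fold change 0.55, edgeR adjusted p = 0.0399), as 1 of 10 in its list. In that list 9 log2 fold changes were positive and 1 negative, with a median of 0.10. Myl2, Tnnt2 and Mb had an unadjusted edgeR p under 0.05, all 3 on the higher side. Erythroid markers included Hba-a1 at 322, 414 and 323 CPM in knock-in and 120, 160 and 139 CPM in wild-type hearts (edgeR adjusted p = 0.00268). Its near copy Hba-a2 and the beta-globin Hbb-bs were called higher too, and values within such copies are uncertain. The macrophage markers summed to 253 to 272 CPM in knock-in and 333 to 385 CPM in wild-type libraries. Of these 9 genes edgeR called 1, Lyz2 (−0.60, edgeR adjusted p = 0.0399), DESeq2 called Lyz2 and Cx3cr1, and limma-voom called 0. All 9 log2 fold changes were negative, with a median of −0.44, and 6 had an unadjusted edgeR p under 0.05. Among smooth muscle and pericyte markers 1 of 8 was called, Acta2 (−1.24, edgeR adjusted p = 0.00268). The log2 fold changes of this list were 4 positive and 4 negative, with a median of 0.0036. The sums of 755 to 896 CPM in knock-in lay below 900 to 948 CPM in wild-type libraries. Acta2 is part of these sums, with 74.2, 93.7 and 72.5 CPM in knock-in and 177, 209 and 182 CPM in wild-type hearts. Fibroblast markers summed to 644 to 794 CPM in knock-in and 703 to 733 CPM in wild-type libraries, and endothelial markers to 872 to 1230 CPM in knock-in and 896 to 1210 CPM in wild-type libraries. Neither list had a call by edgeR, DESeq2 or limma-voom, nor a gene at an unadjusted p under 0.05. The 8 skeletal muscle markers summed to 3180 to 4480 CPM in knock-in and 3130 to 4220 CPM in wild-type libraries. Of these, 4 were tested (Acta1, Mylpf, Tnni2 and Ckm) and 0 were called by these tools. Myh1, Myh2, Myh4 and Tnnt3 did not pass the filter on low counts, and Myh2 was at 0 in all 6 libraries. The edgeR calls of Myl2 and Lyz2 were each lost in 5 of the 6 fits that left out a library (adjusted p up to 0.209 and 0.306), and that of Hbb-bs without wild-type replicate 2 (adjusted p = 0.0538).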

How the data were processed

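The deposited table holds whole-number read counts per Ensembl gene, 1 column per heart, with no normalization by the authors. Per the submitters' processing notes, the tools were STAR, Subread 1.5.2, featureCounts and DESeq2, and the genome build was GRCm38.p6; what each tool did is not stated. Neither the annotation release nor the strand setting or the rule for multiply matching reads is given in the sources used here. Reads of overlapping or antisense genes and of near-identical copies can therefore be gained or lost.

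Columns were matched to samples by their descriptions. Symbols, positions and exon lengths came from GENCODE M21 (GRCm38), which held 48970 of the 49315 identifiers. The test was edgeR 4.0.16 in R 4.3.3, with filterByExpr, TMM, robust glmQLFit and glmQLFTest on genotype over all 6 libraries, with Benjamini-Hochberg adjustment over 12777 genes and an adjusted p under 0.05 as the call. SE is the log2 fold change over the square root of F. DESeq2 1.42.0 and limma 3.58.1 (voom) were alternatives. The functions were tested on simulated counts. Replicate pairs differed by a chi-square per degree of freedom of 7.16 to 27, so each library is 1 replicate. Replicate numbers follow accession order, and p-values measure the spread between these mice only.

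The 10 genes and all lists were chosen with earlier results of these data known. Of 241 list symbols 238 matched; the others are newer names, and 2 of those genes were listed under both names. Named genes are the 10, Txnip, called genes or the smallest p of each list, and the 3 profiles nearest to the smallest p of the 10. Some named genes are not reported here. Oma1, Yme1l1 and Map1lc3b were chosen for their roles after values were seen. A floor of 3 counts equals 0.192 to 0.212 CPM and covers counting error only.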

Additional observations from a re-analysis of the deposited data

How the results depend on the processing

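In each of 16 alternative analyses 0 of the 10 genes were called. Mfn1, Opa1, Fis1, Pink1 and Bnip3l kept their sign in all 16, and the others turned in some. Without 1 library at a time, the log2 fold change ranged from −0.07 to 0.06 for Mfn2, −0.27 to 0.01 for Dnm1l, −0.04 to 0.10 for Mff, −5.7e-04 to 0.20 for Bnip3, −0.10 to 0.03 for Fundc1, −0.04 to 0.07 for Oma1 and −0.25 to 0.08 for Yme1l1. Library-size scaling turned Mfn2 (−0.03), Mff (−0.02) and Oma1 (−0.03), and upper-quartile scaling turned Mfn2 (−0.0034). Leaving out both knock-in replicate 2 and wild-type replicate 3, chosen after seeing the data, turned Mfn2 (−0.03), Mff (−0.08) and Bnip3 (−0.07). The count of called genes, 38, became 317 without a filter, 134 with DESeq2, 18 with limma-voom, 392 without those 2 libraries and 5 to 174 without 1 library; the cause was not tested. With 3 hearts per genotype, the intervals leave room for folds between 0.683 and 1.43. No paired analysis was possible because the labels give no replicate numbers shared between the genotypes.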
